A study of Mus musculus with 4 samples.

Results

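Among sorted smooth muscle cells (SMCs) of the mouse thoracic aorta, 888 cells of 20324 carried at least 4 UMIs of Acan and Comp summed, and they are called Acan/Comp cells here. They were taken from cell barcodes with at least 1000 detected genes, at most 10% mitochondrial UMIs and at least 10 UMIs of Myh11, the smooth muscle myosin heavy chain. A UMI (unique molecular identifier) marks one captured transcript. In the same libraries, 15047 cells with no UMI of either gene served as negative cells, and the cells with 1 to 3 UMIs were left out of both sets. The cells came from mice 12 weeks old that carried Wnt1-Cre2, a recombinase driver of the neural crest lineage, and the mT/mG reporter, in which recombined cells make eGFP and all others tdTomato. All 4 libraries share this genotype and age, and viable single cells positive for ITGA8, an integrin subunit of smooth muscle, were sorted, those of the ascending aorta and arch by reporter colour, and profiled with droplet-based 3′ chemistry. They were 1 library each of the aortic root (Root, whose label gives no colour), the GFP cells of the ascending aorta (Asc-GFP), its RFP cells (Asc-RFP), and of the arch its GFP cells (Arch-GFP). The numbers and sexes of the animals, any pooling and whether libraries share animals are not given in the sources used here. Nothing below therefore has a replicate animal, and libraries are compared by values alone.

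Acan encodes aggrecan, the large chondroitin sulphate proteoglycan that binds hyaluronan and gives cartilage its resistance to compression. Comp encodes cartilage oligomeric matrix protein, also called thrombospondin-5, a secreted glycoprotein that binds collagen and is also made by tendon and vascular smooth muscle. Sox9 is the transcription factor that drives the chondrocyte programme, and Mia encodes a small secreted protein of cartilage. In arteries, SMCs that lose contractile proteins and gain cartilage or bone matrix genes have been described in calcified vessels and in plaques.

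The 29930 deposited barcodes gave 2770, 6220, 3850 and 7484 cells past the 3 filters in Root, in Asc-GFP, Asc-RFP and then Arch-GFP, and every list of 4 values below keeps this order of libraries. Before the filters the matrices hold 4040, 8845, 6539 and 10506 barcodes, and the labels state 1841, 4050, 2450 and 4710 cells after the study's own filter. Between pairs of libraries, 4 to 18 of the barcodes past the gene and mitochondrial filters were shared, none of them a barcode of Acan/Comp cells in both. Acan/Comp cells were deeper than negative cells, with median UMIs of 14629, 15313, 15766.5 and 16227 in Acan/Comp cells against 13147, 12720, 13712 and 12632 in negative cells. Every cell was therefore thinned at random to 5000 UMIs for each comparison of genes, which left out 0, 1, 0 and 1 Acan/Comp cells and 74, 283, 320 and 687 negative cells as shallower. Levels are UMIs summed over the thinned cells of a set and scaled to CPM, counts in 1000000 UMIs. Intervals are at 95% and cover counting error only.

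Acan/Comp cells made up 6.09% of Asc-GFP (379 cells, exact binomial interval 5.51 to 6.72%), 5.13% of Root (142 cells, 4.33 to 6.01%), 4.10% of Arch-GFP (307 cells, 3.66 to 4.58%) and 1.56% of Asc-RFP (60 cells, 1.19 to 2.0%). The intervals of Root and Asc-GFP overlap, and so do those of Root and Arch-GFP, whereas the interval of Asc-RFP lies below the other 3. With every cell thinned to 5000 UMIs and a minimum of 2 UMIs, the shares were 4.72, 6.0, 1.37 and 4.21%, and their order was the same. Within Root, where both colours were present, 6.91% of the 608 cells with at least 8 eGFP UMIs (5.02 to 9.22%) and 4.41% of the 1338 cells with tdTomato and no eGFP UMI (3.37 to 5.65%) were Acan/Comp cells, and thinned the shares were 6.64 and 4.59%. These intervals overlap. Free RNA in droplets was gauged in macrophage-like barcodes, which should lack both genes: 4 of 71 in Root (5.63%) and 1 of 36 in Asc-RFP (2.78%) held at least 1 UMI, at median depths of 8945 and 6470 UMIs, and none held 4. In the SMC barcodes, at least 1 UMI was present in 29.5% of Root and 12.3% of Asc-RFP. Asc-GFP held 1 macrophage-like barcode and Arch-GFP none.

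Acan/Comp cells were commoner among male than among female cells in 4 of 4 libraries. Cells were sexed by UMIs of Xist alone or of Y-linked genes alone. The shares were 8.39, 9.18, 2.29 and 5.71% of male cells and 4.52, 4.79, 1.17 and 0.920% of female cells, with a geometric mean ratio of 2.56 between them. The exact two-sided permutation test over the 4 libraries gave p = 0.125, which is the smallest p that 4 libraries allow. After thinning the shares were 6.19, 8.65, 1.64 and 5.20% of male and 4.49, 5.04, 0.954 and 1.62% of female cells. Only in Asc-GFP and Arch-GFP are the thinned intervals of the sexes apart. Sex cannot be told apart from the animals that gave the cells.

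**Figure D1:**
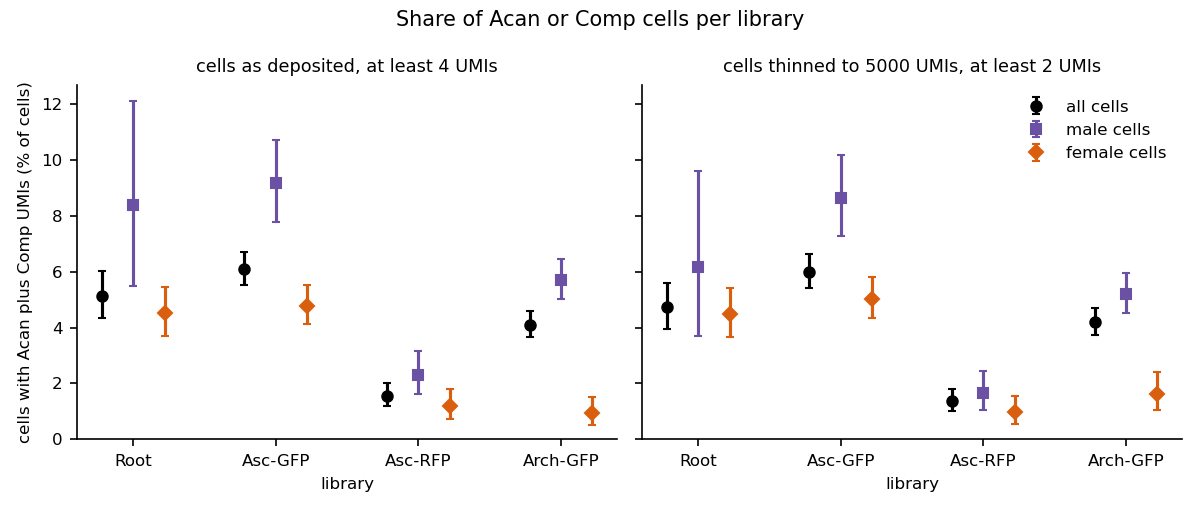
Share of Acan/Comp cells in each library (points, with exact binomial 95% intervals) among all, male and female cells, as deposited with at least 4 UMIs (left) and thinned to 5000 UMIs with at least 2 UMIs (right). Male cells lie above female cells in all 4 libraries, and Asc-RFP is lowest among all cells, at 1.56%.

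The rule used Acan and Comp, so their levels are a description. Acan lies on chromosome 7 (79053483 to 79115099, plus strand) and Comp on chromosome 8 (70373558 to 70382066, plus strand) of mm10, as annotated in GENCODE M21. Of the 888 cells, 572 held Acan alone, 86 Comp alone and 230 both. The thinned level of Acan in Acan/Comp cells was 261, 308, 243 and 287 CPM, and that of Comp was 206, 149, 66.7 and 90.9 CPM. The largest sums in a single cell were 23, 28, 12 and 24 UMIs, and the median sum was 5 in each library. Most cells lay near the threshold: 330 cells held exactly 4 UMIs and 525 cells just outside it held exactly 3. At exactly 4 UMIs the thinned Acan level was 257, 238, 183 and 238 CPM, and at exactly 3 it was 128, 163, 208 and 156 CPM. Cells with more Comp than Acan made up 34.5, 23.5, 18.3 and 19.2% of Acan/Comp cells.

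Promoter windows of Acan and of 2 genes that were higher together with it, Sost and S100a4, are shown because Klf2 and Klf4, transcription factors that bind CACCC boxes, were higher in Acan/Comp cells. Each is the 250 bases before the annotated start (RefSeq, GRCm38.p6), 5′ to 3′ on the gene's strand, at chr7:79052976-79053225 (plus strand) for Acan, chr11:101967016-101967265 (minus strand) for Sost and chr3:90603520-90603769 (plus strand) for S100a4. Capitals mark CACCC or its reverse complement GGGTG.
Acan: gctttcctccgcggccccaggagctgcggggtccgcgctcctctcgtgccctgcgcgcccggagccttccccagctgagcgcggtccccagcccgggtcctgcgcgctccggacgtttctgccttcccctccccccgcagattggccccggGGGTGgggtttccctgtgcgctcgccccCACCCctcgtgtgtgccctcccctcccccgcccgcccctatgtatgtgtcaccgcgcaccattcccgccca
Sost: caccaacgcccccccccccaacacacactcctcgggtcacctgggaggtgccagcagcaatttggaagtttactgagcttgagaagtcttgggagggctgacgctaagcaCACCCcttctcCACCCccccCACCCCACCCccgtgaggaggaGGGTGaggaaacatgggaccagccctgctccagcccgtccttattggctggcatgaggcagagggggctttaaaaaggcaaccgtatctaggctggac
S100a4: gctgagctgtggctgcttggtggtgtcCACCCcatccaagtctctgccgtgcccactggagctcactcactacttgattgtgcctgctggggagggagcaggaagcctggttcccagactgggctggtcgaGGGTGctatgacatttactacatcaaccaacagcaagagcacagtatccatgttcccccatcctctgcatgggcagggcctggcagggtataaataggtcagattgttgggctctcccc
The Acan window holds 2 such matches, the Sost window 5 and the S100a4 window 2. CACCC on either strand was found in 52.0% of all 32817 windows of the same length, in 10 of the 11 windows available for the 16 named higher genes below and in 7 of the 8 available for the 10 named lower genes. The EGR motif GCGNGGGCG (4.70% of all windows) and the SOX motif ACAANG (36.3%) were in none of the 3 sequences shown. Among the named genes' windows the SOX motif was in 4 of the 11 of higher and 1 of the 8 of lower genes, and the EGR motif in 0 of both. These matches are letters in a window and not binding sites, and windows of genes named for their response are no independent sample.

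By their markers these cells did not stand out as cartilage cells. Mia had 9.86, 51.9, 6.67 and 75.8 CPM in Acan/Comp cells and 4.47, 52.0, 14.9 and 107 CPM in negative cells. It was higher in Root, on 7 UMIs and within counting error, and level or lower in the other 3 libraries. Its log2 difference of Acan/Comp cells minus negative cells was -0.27 ± 0.13 (SE, edgeR adjusted p = 0.248), and only in Arch-GFP did the interval of the library's own ratio lie below 0. For Sox9 the levels were 7.04, 3.70, 3.33 and 11.8 CPM in Acan/Comp cells and 6.39, 3.25, 4.32 and 16.1 CPM in negative cells, with -0.24 ± 0.27 (edgeR adjusted p = 0.737) and an interval of the difference of -0.79 to 0.31. The share of cells with a Mia UMI after thinning was 4.23, 18.8, 3.33 and 27.5% in Acan/Comp cells and 1.70, 18.8, 6.02 and 32.9% in negative cells. Col2a1, the collagen of hyaline cartilage, had no UMI in the thinned Acan/Comp cells of any library, nor did Matn1, Chad, Epyc, Prg4, Col9a3, Col11a1, Cnmd or Ucma. They are from a list of 39 cartilage matrix genes, of which 20, 23, 16 and 20 were detected in Acan/Comp cells. In negative cells, whose sums are deeper, 28, 27, 26 and 29 were, so that these zeros do not tell the sets apart. Of the 15 tested, 3 were called higher and 1 lower, as given below. All 25 contractile genes of a fixed list were detected in both sets of every library, at summed levels of 71041, 74057, 76493 and 70575 CPM in Acan/Comp cells against 76466, 80809, 85863 and 75288 CPM in negative cells.

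With each library's 2 sums paired, 578 of 10454 genes (5.53%) differed between Acan/Comp and negative cells at an edgeR quasi-likelihood adjusted p under 0.05: 294 (2.81%) were higher and 284 (2.72%) lower, and the median difference over all genes was -0.01. The p-values measure how the difference varies over these 4 libraries, not over animals. The strongest by p was Mgp, matrix Gla protein, a secreted inhibitor of calcification, at 17608, 14462, 12540.0 and 12301 CPM in Acan/Comp cells and 11639, 7298, 8426 and 7765 CPM in negative cells. Its log2 difference was 0.68 ± 0.05 (edgeR adjusted p = 7.33e-12), higher in 4 of 4 libraries. Sost, which encodes the Wnt antagonist sclerostin, stood at 1082, 1805, 1340.0 and 1789.5 CPM in Acan/Comp cells and 808, 986, 701 and 1119 CPM in negative cells, a difference of 0.70 ± 0.06 (edgeR adjusted p = 5.16e-10). The bone morphogenetic protein gene Bmp2 was a low gene with a larger difference, at 73.2, 47.6, 50 and 39.2 CPM in Acan/Comp cells and 34.0, 14.0, 13.2 and 13.9 CPM in negative cells and 1.5 ± 0.14 (edgeR adjusted p = 2.02e-09). For these 3 genes the library's own ratio was above 0 beyond counting error in all 4 libraries. Leaving out Asc-GFP brought the calls to 204, DESeq2 in place of edgeR to 260 and sums taken as unpaired to 21. Leaving out every cell with 3 or more UMIs of the fibroblast, of the macrophage or of the endothelial list, the first of which holds genes that smooth muscle also makes, kept 6, 19, 4 and 2 Acan/Comp cells and 3 calls (Mfap4, Fbxl22 and Mt1, all lower), and Mgp then stood at -0.22 (adjusted p = 0.76). With the macrophage and endothelial lists alone, an alternative chosen after seeing the data, 532 genes were called.

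Among 7 tested hypertrophy and calcification genes (median 0.68, over all genes -0.01), 5 were higher and none lower, beside 2.81% and 2.72% of all genes. Beside Mgp, Sost and Bmp2 these were Ank, a transporter that exports pyrophosphate, and Ihh, the hedgehog ligand of growth plates. Ank had 46.5, 65.1, 66.7 and 66.0 CPM in Acan/Comp cells and 32.4, 37.6, 33.5 and 51.2 CPM in negative cells (0.59 ± 0.11, edgeR adjusted p = 0.000491). Ihh rested on 7, 26, 4 and 22 UMIs in Acan/Comp cells (1.02 ± 0.23, edgeR adjusted p = 0.00372). Without Asc-GFP both lost the call, with adjusted p = 0.11 for Ank and 0.14 for Ihh. Runx2, Alpl and Spp1, genes of bone-forming cells, were below 5 CPM in Acan/Comp cells of every library and were not tested.

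The other named higher genes were Pdzrn4, a PDZ and RING finger protein, Nrgn, the calmodulin-binding protein neurogranin, S100a4, a calcium-binding protein of migrating mesenchymal cells, Susd5, Col18a1, Serpini1, Asap2, Mustn1, Prss23, Gipc2, 4631405J19Rik, Hbegf and Npnt. Pdzrn4 had the largest difference of the 16, 2.10 ± 0.15 (edgeR adjusted p = 9.23e-12), at 42.3, 70.9, 16.7 and 76.5 CPM in Acan/Comp cells and 13.8, 13.2, 12.5 and 15.7 CPM in negative cells. In Asc-RFP, where 5 UMIs were counted in Acan/Comp cells, its own interval reached below 0. Nrgn followed at 62.0, 74.1, 33.3 and 59.5 CPM in Acan/Comp cells and 13.5, 22.1, 19.8 and 23.9 CPM in negative cells (1.57 ± 0.13, edgeR adjusted p = 5.16e-10). S100a4 was more abundant, with 489, 579.9, 600.0 and 692 CPM in Acan/Comp cells and 254, 332, 204 and 423 CPM in negative cells (0.91 ± 0.08, edgeR adjusted p = 5.16e-10), and stood apart in all 4 libraries. Npnt encodes nephronectin, a ligand of the integrin whose α8 subunit was the sorting antigen, and had 1014, 1185, 1100.0 and 1169.9 CPM in Acan/Comp cells and 722, 920.0, 765 and 837 CPM in negative cells (0.44 ± 0.05, edgeR adjusted p = 4.49e-07). Hbegf, a growth factor of the EGF family, showed 0.85 ± 0.10, and Mustn1, a small nuclear protein of muscle and skeleton, 0.78 ± 0.09. The remaining differences ran between 0.48 for Col18a1 and 1.33 for Gipc2, and each of the 16 was higher in 4 of 4 libraries.

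The named lower genes began with Aspn, asporin, a small leucine-rich proteoglycan that binds collagen, which had 71.8, 51.3, 86.7 and 37.3 CPM in Acan/Comp cells and 136, 152, 209 and 76.2 CPM in negative cells, a difference of -1.29 ± 0.10 (edgeR adjusted p = 1.42e-10). Mfap4, a microfibril-associated glycoprotein that binds elastin, had 379, 486, 413 and 675 CPM in Acan/Comp cells and 515, 967, 895 and 1016 CPM in negative cells (-0.79 ± 0.07, edgeR adjusted p = 2.34e-09). Mfap5, also microfibril-associated, showed -0.71 ± 0.08 and Tnxb, a tenascin that spaces collagen fibrils, -1.01 ± 0.10. The other named lower genes were Kcnj15, an inward rectifier potassium channel (-1.22 ± 0.12), Gxylt2, a glycosyltransferase (-0.69 ± 0.08), Rbp4, the retinol carrier (-0.61 ± 0.07), the metallothionein Mt1 (-0.58 ± 0.07), Fbxl22 (-0.51 ± 0.06) and the glutathione transferase Gstm1 (-0.49 ± 0.06). All 10 were lower in 4 of 4 libraries, again because the naming rule asks for it. In Root the Mfap5 intervals overlapped, at 165 CPM (136 to 197) in Acan/Comp cells and 195 CPM (186 to 204) in negative cells.

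**Figure D2:**
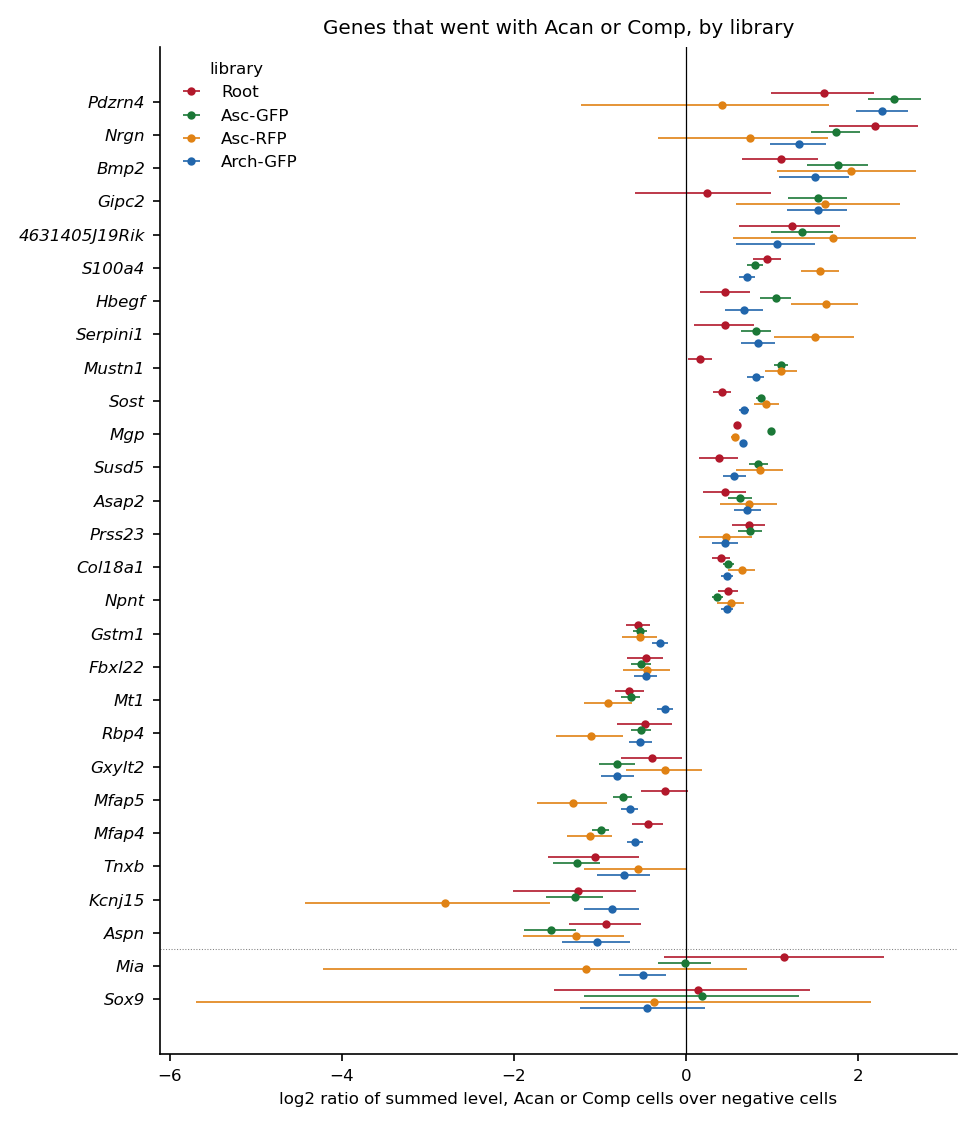
Log2 ratio of the summed level in Acan/Comp cells over negative cells (points, one colour per library, with exact conditional binomial 95% intervals) for the 16 named higher and 10 named lower genes, and below the dotted line for Mia and Sox9. The named genes lie on one side of 0 in all 4 libraries because the naming rule asks for it. Mia, named without that rule, is below 0 beyond counting error in Arch-GFP, and its Root point above 0 rests on 7 UMIs, within counting error.

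Cells between the 2 sets were counted as well, as a description with no test. Cells were classed by 0, 1, 2 to 3, 4 to 7 and at least 8 UMIs of Acan plus Comp, in this order. Mgp stood at 7298, 8930, 11424, 13744 and 16796 CPM in Asc-GFP and at 7765, 9578, 11244, 12061 and 13305 CPM in Arch-GFP, each step higher than the one before. In Root it had 11639, 14095, 16736, 16102 and 22788 CPM and in Asc-RFP 8426, 11196, 14169, 12421 and 13017 CPM, so that the fourth class lay below the third in both. Mfap4 was lower at each step in Asc-GFP, with 967, 824, 648, 498 and 449 CPM. In Asc-RFP (895, 788, 569, 400.0 and 467 CPM) and Arch-GFP (1016, 899.9, 743, 654 and 763 CPM) its last class was above the fourth, and in Root (515, 410.2, 389, 393 and 331 CPM) the fourth was about level with the third. Sost in Asc-GFP had 986.5 CPM at 0 UMIs, 1568 CPM at 2 to 3 UMIs and 1951 CPM at 8 or more, while in Root its highest class had 838 CPM, close to the 808 CPM at 0. The class of at least 8 UMIs holds 32, 89, 12 and 59 thinned cells, so that its intervals are wide.

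**Figure D3:**
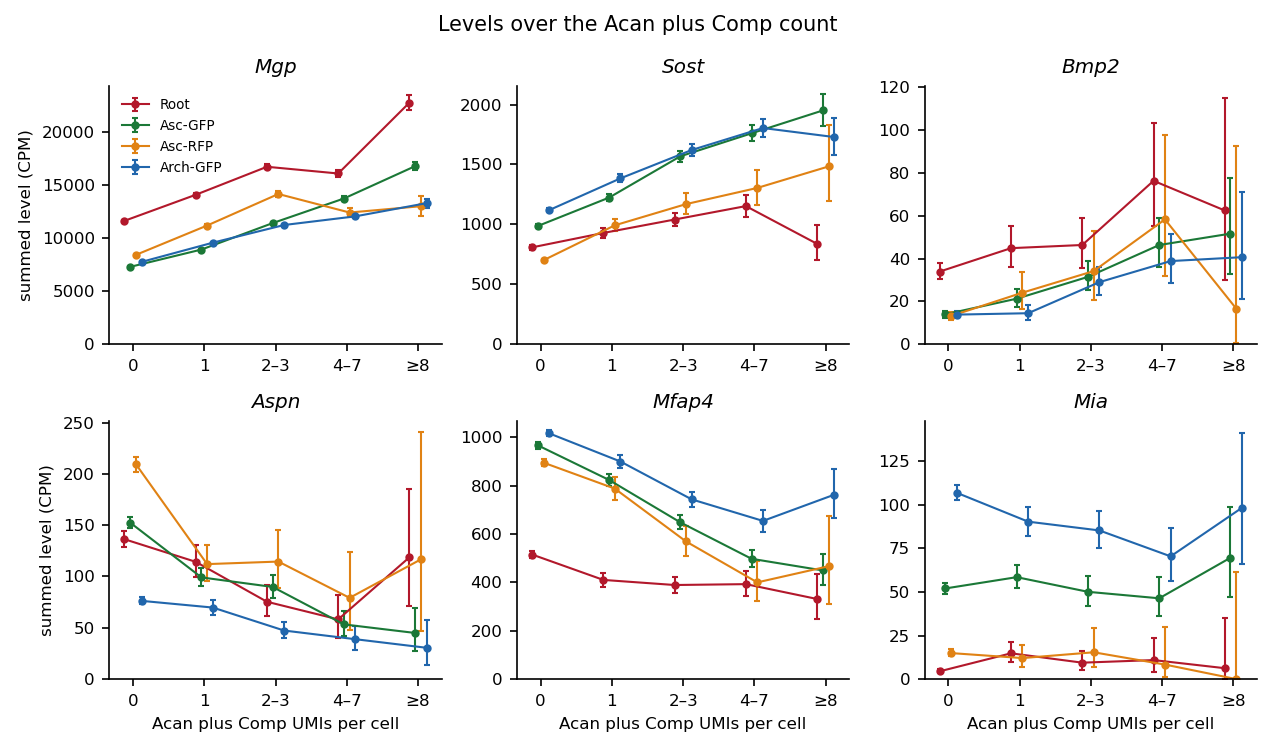
Summed level in CPM (points, with exact Poisson 95% intervals) of 6 genes in cells grouped by their Acan plus Comp UMIs, one line per library. In all 4 libraries Mgp, Sost and Bmp2 are higher, and Aspn and Mfap4 lower, at 2 to 3 UMIs than at 0, and Mia shows no such common order.

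Of 18 tested BMP signalling genes, 7 were higher and 2 lower, beside 2.81% and 2.72% of all genes, with a median of 0.24. The inhibitory Smad6, a direct BMP target, had 52.1, 58.7, 26.7 and 50.3 CPM in Acan/Comp cells and 38.1, 26.1, 17.0 and 30.6 CPM in negative cells (0.81 ± 0.12, edgeR adjusted p = 2.55e-05). Id1, a classic BMP target, had 159, 195, 183 and 191 CPM in Acan/Comp cells and 173, 99.5, 107 and 129 CPM in negative cells: it was higher in 3 libraries and slightly lower in Root (0.56 ± 0.10, edgeR adjusted p = 0.000166). Without Asc-GFP, Id1 lost the call at adjusted p = 0.13. Id4 followed the same pattern with 0.55 ± 0.09 (edgeR adjusted p = 0.000118), and without Arch-GFP it lost the call at adjusted p = 0.053. The receptor gene Bmpr1b was lower, -0.91 ± 0.14 (edgeR adjusted p = 1.59e-05). Among 20 TGF-β genes 3 were higher and none lower, among the higher ones the inhibitory Smad7 (0.81 ± 0.11).

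Sox9 and its partner Sox5 (-0.16 ± 0.21) were not called. Of 14 tested transcription factors of chondrocytes and tendon, 3 were higher, beside 2.81% of all genes: Egr1, Klf4 and Klf2. All 3 are zinc finger factors that also respond to flow and stress. The levels of Egr1 were 127, 151, 257 and 63.4 CPM in Acan/Comp cells and 67.4, 60.2, 69.2 and 52.3 CPM in negative cells (1.05 ± 0.13, edgeR adjusted p = 5.03e-07). Klf2 had 63.4, 82.0, 130.0 and 61.4 CPM in Acan/Comp cells and 44.6, 31.9, 52.2 and 38.9 CPM in negative cells (0.96 ± 0.12, edgeR adjusted p = 6.83e-07), and Klf4, a factor known for repressing contractile genes in SMCs, 33.8, 47.1, 60.0 and 42.5 CPM in Acan/Comp cells and 23.9, 17.0, 19.0 and 27.1 CPM in negative cells (1.01 ± 0.15, edgeR adjusted p = 1.59e-05). All 3 were higher in 4 of 4 libraries. Immediate-early and dissociation genes, known to be induced by tissue digestion, were at summed levels of 6693, 5911, 8123 and 4965 CPM in Acan/Comp cells against 6301, 4968, 5081 and 5249 CPM in negative cells. Of the 19 tested, 3 were higher (Egr1, Klf4 and Ier2) and 1 lower, beside 2.81% and 2.72% of all genes. The lower one was Nr4a1 (-0.97 ± 0.14, edgeR adjusted p = 8.96e-06). The part of digestion in the higher Egr1 and Klf levels was not tested.

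Of 25 tested contractile genes 13 were lower and 1 higher, beside 2.72% and 2.81% of all genes, with a median of -0.16 beside -0.01. Summed, the 25 stood at 70575 to 76493 CPM in Acan/Comp cells, whereas all genes count from 3 CPM. Small differences are called more easily at such levels, so these shares are not on equal terms. Myl9, the regulatory myosin light chain, had 3878, 3797, 3723 and 3896 CPM in Acan/Comp cells and 4434, 4624, 5004 and 4599 CPM in negative cells (-0.31 ± 0.04, edgeR adjusted p = 1.14e-05). Myh11 showed -0.21 ± 0.04, but a filter asked for 10 of its unthinned UMIs and negative cells were shallower. A shallow cell needs a larger part of Myh11 to pass, so its lower call is no independent result. The count of 13 was not repeated without it. Des, desmin, had 97.2, 33.9, 160.0 and 24.8 CPM in Acan/Comp cells and 256, 45.6, 346 and 23.4 CPM in negative cells: it was lower in 3 libraries and level in Arch-GFP (-0.88 ± 0.13, edgeR adjusted p = 1.6e-05). DESeq2 did not call Des (adjusted p = 0.26). The exception was Pln, phospholamban, the inhibitor of the sarcoplasmic calcium pump, at 134, 50.8, 93.3 and 39.9 CPM in Acan/Comp cells and 98.2, 12.6, 30.7 and 10.4 CPM in negative cells (1.32 ± 0.17, edgeR adjusted p = 2e-06). It was higher in all 4 libraries and least so in Root.

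Of 14 tested genes of modulated SMCs, 7 were higher and none lower, beside 2.81% and 2.72% of all genes, with a median of 0.62. They were Mgp, S100a4, Klf4, Lgals3, Vcam1, Fn1 and Thbs1. Lgals3, galectin-3, had 25.4, 34.4, 56.7 and 58.2 CPM in Acan/Comp cells and 19.4, 19.7, 23.1 and 36.2 CPM in negative cells (0.73 ± 0.13, edgeR adjusted p = 0.000283). Vcam1 had 128, 25.9, 30.0 and 10.5 CPM in Acan/Comp cells and 31.6, 13.0, 16.6 and 16 CPM in negative cells, lower in Arch-GFP than in its negative cells, and without Root its difference was 0.42 (adjusted p = 0.39). Fn1, fibronectin, likewise rested on Root, with 0.49 ± 0.10 (edgeR adjusted p = 0.00133) and 0.24 without it (adjusted p = 0.092). Thbs1 had 60.6, 17.5, 10 and 2.61 CPM in Acan/Comp cells and 24.2, 0.863, 11.0 and 2.08 CPM in negative cells, so that its difference of 1.69 ± 0.33 came from Root and Asc-GFP, still called without Asc-GFP at 1.01. Mgp, S100a4 and Klf4 also stand in other lists above.

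Matrix lists gave mixed counts, to be set beside 2.81% higher and 2.72% lower of all genes. Of 39 cartilage matrix genes 15 were tested, 3 were higher (Susd5, Ext1 and Cspg4) and Ogn, osteoglycin, was lower (-0.41 ± 0.05, edgeR adjusted p = 1.66e-06), with a median of -0.10. Susd5, a protein with a hyaluronan-binding link domain, had 249, 402, 390.0 and 330.1 CPM in Acan/Comp cells and 192, 224, 214 and 223 CPM in negative cells (0.64 ± 0.07, edgeR adjusted p = 1.23e-07). Without Asc-GFP, Ext1 and Cspg4 lost the call, at adjusted p = 0.098 and 0.13, and without Arch-GFP so did Cspg4 at 0.051. Of 17 collagens 3 were higher, among them the basement membrane collagens Col18a1 (0.48 ± 0.05) and Col15a1 (0.32 ± 0.07). Of 16 elastic fibre genes 3 were lower, Mfap4, Mfap5 and Fbln1. Fbln1 had 15.5, 2.65, 0 and 7.19 CPM in Acan/Comp cells and 13.3, 2.28, 8.11 and 56.4 CPM in negative cells, and without Arch-GFP its difference was -0.06 (adjusted p = 0.98). Of 11 tendon and fibrocartilage genes Tnc, tenascin-C, was higher (16.9, 22.8, 23.3 and 16.3 CPM in Acan/Comp cells and 4.90, 10.2, 3.93 and 6.36 CPM in negative cells, 1.40 ± 0.21, edgeR adjusted p = 2.26e-05) and Aspn lower.

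Over all genes, 2.81% were higher and 2.72% lower, the shares beside which the next lists stand. Among 19 Wnt genes 2 were higher and 3 lower. The receptor gene Fzd7 was higher (0.55 ± 0.10, edgeR adjusted p = 0.0004), and the secreted antagonist Sfrp2 had 50.7, 144, 43.3 and 305 CPM in Acan/Comp cells and 38.7, 262, 147 and 474 CPM in negative cells, lower in 3 libraries and higher in Root (-0.73 ± 0.10, edgeR adjusted p = 6.43e-06), and not called by DESeq2 (adjusted p = 0.49). Of 12 IGF and FGF genes 3 were higher and 2 lower, with Fgf1 at 0.65 ± 0.10 (edgeR adjusted p = 3.54e-05) and Fgf2 at 63.4, 115, 76.7 and 95.4 CPM in Acan/Comp cells and 55.1, 55.2, 46.7 and 44.9 CPM in negative cells (0.87 ± 0.10, edgeR adjusted p = 5.03e-07). Epas1, which encodes the hypoxia-inducible factor HIF-2α, was higher (0.64 ± 0.09, edgeR adjusted p = 1.28e-05) and Adm, adrenomedullin, lower (-0.69 ± 0.12), the only 2 calls among 16 hypoxia genes. Of 17 matrix proteases and inhibitors 2 were higher and 4 lower, with the aggrecanase Adamts5 at 40.8, 27.0, 36.7 and 30.1 CPM in Acan/Comp cells and 76.7, 43.5, 76.7 and 48.6 CPM in negative cells (-0.80 ± 0.12, edgeR adjusted p = 1.58e-05). Of 22 genes of oxidative phosphorylation none was called by edgeR, 8 had an unadjusted p under 0.05, with a median of -0.11 and 1 of 22 above 0.

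**Figure D4:**
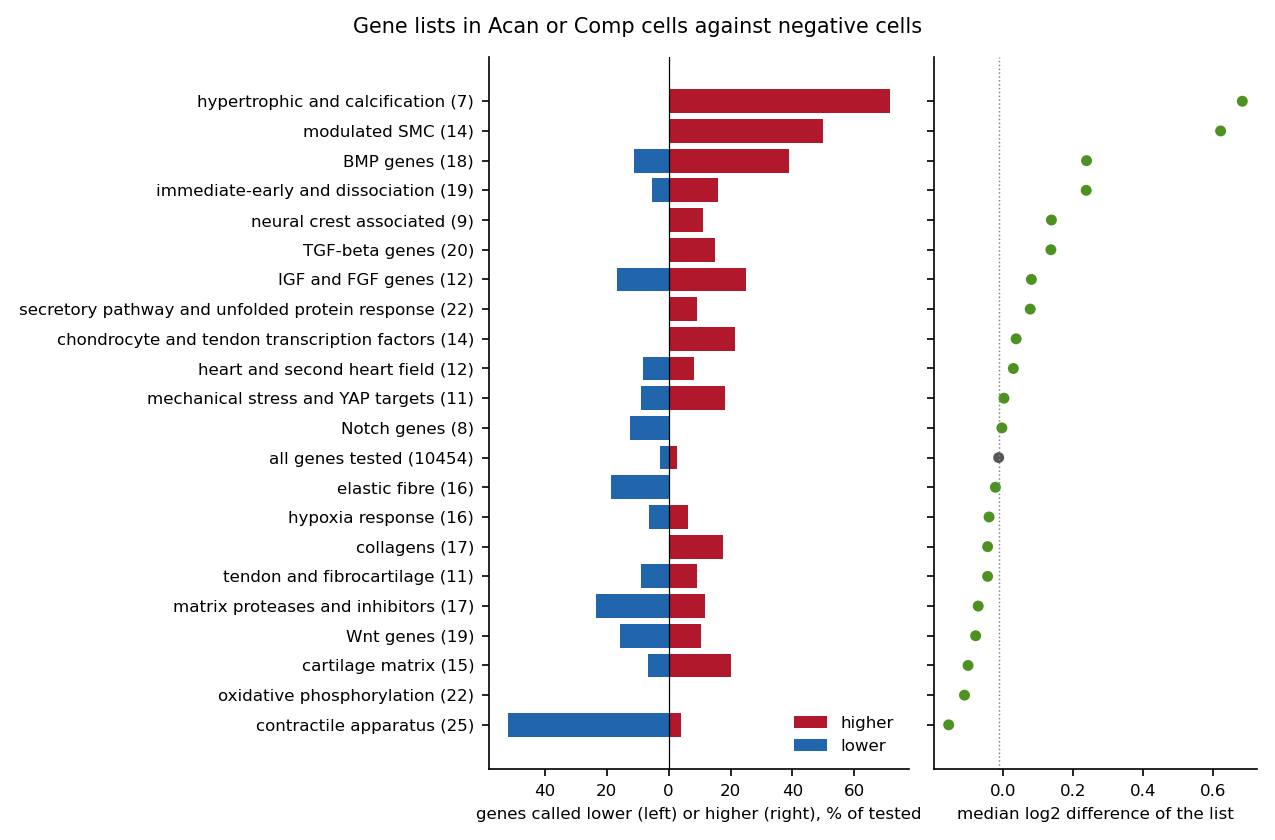
Share of the tested genes of each list called lower (left bars) or higher (right bars) in Acan/Comp cells at an adjusted p under 0.05, and the list's median log2 difference (right panel, dotted line at the median of all genes). Numbers of tested genes stand in brackets, and lists of other cell types' markers and lists with under 5 tested genes are not drawn. Of the lists drawn, calcification and modulated SMC genes have the highest medians and contractile genes the lowest.

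Markers of other cell types were counted in both sets, and their part in the differences above was not tested. Calls among them stand beside 2.81% higher and 2.72% lower of all genes. The 12 fibroblast markers summed to 1154, 638, 680 and 714 CPM in Acan/Comp cells against 843, 742, 740 and 942 CPM in negative cells, and Pi16, Dpep1, Clec3b and Ly6a were at 0 in Acan/Comp cells of all 4 libraries. For Dcn, decorin, Root stood apart from the other libraries: it had 179, 7.41, 6.67 and 6.54 CPM in Acan/Comp cells and 77.4, 19.3, 56.5 and 15.1 CPM in negative cells, higher in Root alone. Over 4 libraries its difference was 0.08 ± 0.26 (edgeR adjusted p = 0.932), and without Root it was -1.59 (adjusted p = 0.00025). With a minimum of 8 UMIs it was 1.28 and called higher (adjusted p = 1e-06). The 10 markers of heart valve and skeletal joint cells summed to 1051, 1081, 1230.0 and 1010 CPM in Acan/Comp cells against 683, 853, 869 and 717 CPM in negative cells, and Col2a1, Matn1, Chad and Prg4 were at 0 in Acan/Comp cells of all 4. Of the 3 tested, 2 were higher: Postn, periostin, with 1003, 1018, 1203 and 974 CPM in Acan/Comp cells and 640.0, 818, 852 and 698 CPM in negative cells (0.46 ± 0.06, edgeR adjusted p = 5.64e-07), and Tbx20, a T-box factor of heart development, with 0.81 ± 0.15 (edgeR adjusted p = 0.000407). Without Asc-GFP, Tbx20 lost the call at adjusted p = 0.065. The 10 macrophage markers summed to 36.6, 0.529, 10 and 0.654 CPM in Acan/Comp cells against 119, 1.12, 6.15 and 0.790 CPM in negative cells. The 9 endothelial markers summed to 12.7, 22.8, 10 and 17.6 CPM in Acan/Comp cells against 12.9, 29.2, 15.5 and 26.2 CPM in negative cells. The 9 cardiomyocyte markers summed to 84.5, 85.2, 53.3 and 77.1 CPM in Acan/Comp cells against 72.8, 53.1, 56.0 and 45.4 CPM in negative cells, mostly Ryr2 (0.59 ± 0.10), while Myh6, Myl2, Myl7, Tnni3 and Nppa were at 0 in Acan/Comp cells. The 7 pericyte markers summed to 544, 695, 573 and 922 CPM in Acan/Comp cells against 489, 667, 608 and 1010.3 CPM in negative cells, and of the 6 tested Cspg4 was higher and Rgs5 lower. Rgs5 had 12.7, 57.1, 16.7 and 258 CPM in Acan/Comp cells and 31.2, 99.2, 125 and 407 CPM in negative cells (-0.84 ± 0.11, edgeR adjusted p = 1.33e-06), a call that DESeq2 did not make (adjusted p = 0.087). The 6 Schwann cell markers summed to 22.5, 6.35, 16.7 and 6.54 CPM in Acan/Comp cells against 6.28, 5.28, 6.54 and 7.32 CPM in negative cells. The Root ratio was above 0 beyond counting error (log2 1.84, 0.95 to 2.66), where S100b had 14.1 CPM from 10 UMIs in Acan/Comp cells and 0.426 CPM in negative cells, and Sox10 and Mbp were at 0 in Acan/Comp cells of all 4 libraries. The 6 adipocyte markers summed to 69.0, 39.7, 40.0 and 35.3 CPM in Acan/Comp cells against 59.4, 41.2, 71.7 and 39.3 CPM in negative cells. The 6 mesothelial markers were at 0 in Acan/Comp cells of Root, Asc-GFP and Arch-GFP and at 3.33 CPM in those of Asc-RFP, against 0.107, 0, 0.196 and 0.374 CPM in negative cells. Barcodes positive for Xist together with a Y-linked gene, a possible sign of doublets, were 1.41, 4.50, 1.67 and 3.27% of thinned Acan/Comp cells and 0.586, 3.30, 1.5 and 4.16% of negative cells. As deposited, where Acan/Comp cells are deeper, they were 5.63, 13.5, 5 and 10.7% against 1.59, 8.57, 5.21 and 9.92%. Those intervals lie apart in Root (2.46 to 10.8% against 1.08 to 2.25%) and in Asc-GFP (10.2 to 17.3% against 7.74 to 9.46%). The part of doublets was not tested.

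The sexes were unequally mixed in the 2 sets: females made up 80.6, 54.8, 37.5 and 6.02% of sexed Acan/Comp cells against 89.5, 73.3, 55.5 and 32.9% of sexed negative cells. With library and sex together as the block, 583 genes were called, 278 higher and 305 lower. Of the 578 calls, 473 were made again in the same direction, and all 26 named genes kept theirs. In female cells alone 162 genes were called and in male cells alone 322.

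Whether Acan and Comp go together was asked with splits that use only one of them. In cells with at least 3 Acan UMIs, 972 of 10455 genes (9.30%) differed from cells without Acan, 489 higher (4.68%) and 483 lower (4.62%). Comp had 7.59, 42.9, 8.45 and 21.1 CPM in the Acan-high cells against 14.2, 8.93, 1.23 and 6.36 CPM in the cells without Acan. It was higher in 3 libraries and lower in Root, with a log2 difference of 1.63 ± 0.24 (edgeR adjusted p = 3.44e-06). Without Asc-GFP this difference was 1.03, still called. In cells with at least 3 Comp UMIs, 17 of 10455 genes (0.163%) differed from cells without Comp, 10 higher (0.0956%) and 7 lower (0.067%). Acan was one of the 10, at 47.6, 106, 85.7 and 93.5 CPM in the Comp-high cells against 35.8, 42.8, 13.4 and 33.5 CPM in the cells without Comp (1.27 ± 0.17, edgeR adjusted p = 6.37e-11). Acan was higher in 4 of 4 libraries, in Root within counting error. The thinned Comp-high cells numbered 63, 126, 14 and 92, and in Asc-RFP Acan rested on 6 UMIs. Mgp was higher in Comp-high cells too, by 0.33 ± 0.07 (edgeR adjusted p = 0.000399). Of 14 modulated SMC genes 5 were higher there, and in the Acan split 7 higher and 2 lower. Of 25 contractile and 18 BMP genes none was called in the Comp split. In the Acan split 12 contractile genes were lower and 2 higher, and 9 BMP genes higher and 2 lower. Of 7 fibroblast markers 2 were higher (median 0.89) in the Comp split and 4 lower (median -0.67) in the Acan split. Thinned Acan-high cells were more numerous, at 158, 448, 71 and 407, so calls come more easily there.

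Among themselves the Acan/Comp cells differed by which gene led. Of the 888 cells, 208 held more Comp than Acan (Comp-led) and 650 more Acan than Comp (Acan-led), and 68 of 10454 genes (0.650%) differed between them, 26 higher (0.249%) and 42 lower (0.402%) in Comp-led cells. Thinned Comp-led cells numbered 49, 89, 11 and 59 and Acan-led cells 91, 274, 48 and 235. Levels in the 11 Comp-led cells of Asc-RFP therefore rest on few UMIs. The fibroblast-associated proteoglycan gene Dcn had 486, 13.5, 36.4 and 27.1 CPM in Comp-led cells against 17.6, 5.84, 0 and 1.70 CPM in Acan-led cells (3.91 ± 0.30, edgeR adjusted p = 3.95e-34). Lum, lumican, of the same family, had 233, 6.74, 18.2 and 3.39 CPM in Comp-led cells against 0, 0, 0 and 1.70 CPM in Acan-led cells. Most UMIs of both in Acan/Comp cells were in Root, with 127, 14, 2 and 10 for Dcn and 57, 3, 1 and 3 for Lum. Without Root the differences were 2.48 for Dcn (adjusted p = 0.12) and 2.87 for Lum (adjusted p = 0.82). Apoe, the lipid carrier, had 1245, 258, 145 and 159 CPM in Comp-led cells against 185, 116, 87.5 and 114 CPM in Acan-led cells, higher in 4 of 4 libraries (1.56 ± 0.13, edgeR adjusted p = 2.15e-28), and 0.89 without Root, still called. Acan/Comp cells as a whole had less Apoe than negative cells, by -0.51 ± 0.07 (edgeR adjusted p = 5.59e-06), in 4 of 4 libraries. With a minimum of 8 UMIs this was -0.19 (adjusted p = 0.73), and in Root cells of at least 8 UMIs had 944 CPM (799 to 1107) against 712 CPM in negative cells.

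Egr1 had 53.1, 67.4, 127 and 23.7 CPM in Comp-led cells against 169, 186, 292 and 64.7 CPM in Acan-led cells, lower in 4 of 4 libraries (-1.48 ± 0.20, edgeR adjusted p = 2.54e-10). The heat shock gene Hspa1b (-0.80 ± 0.12), Hbegf (-0.97 ± 0.17) and Col15a1 (-0.79 ± 0.15) were lower as well, each in 4 of 4 libraries. Of 19 immediate-early and dissociation genes 6 were lower and none higher in Comp-led cells, beside 0.402% and 0.249% of all genes. Mfap4 and Mt1, lower in Acan/Comp cells as a whole, were higher in Comp-led cells, by 0.78 ± 0.10 and 0.72 ± 0.11. Mgp, Sost, Bmp2 and Mia were not called between the 2 kinds, at -0.20 ± 0.07, -0.27 ± 0.09, -0.85 ± 0.27 and 0.44 ± 0.24. The 7 tested hypertrophy and calcification genes leaned lower in Comp-led cells, with 1 of 7 above 0 and a median of -0.27. Of these, 4 had an unadjusted edgeR p under 0.05, beside 695 of 10454 genes. Leaving out Root left 29 calls and leaving out Asc-GFP left 22.

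**Figure D5:**
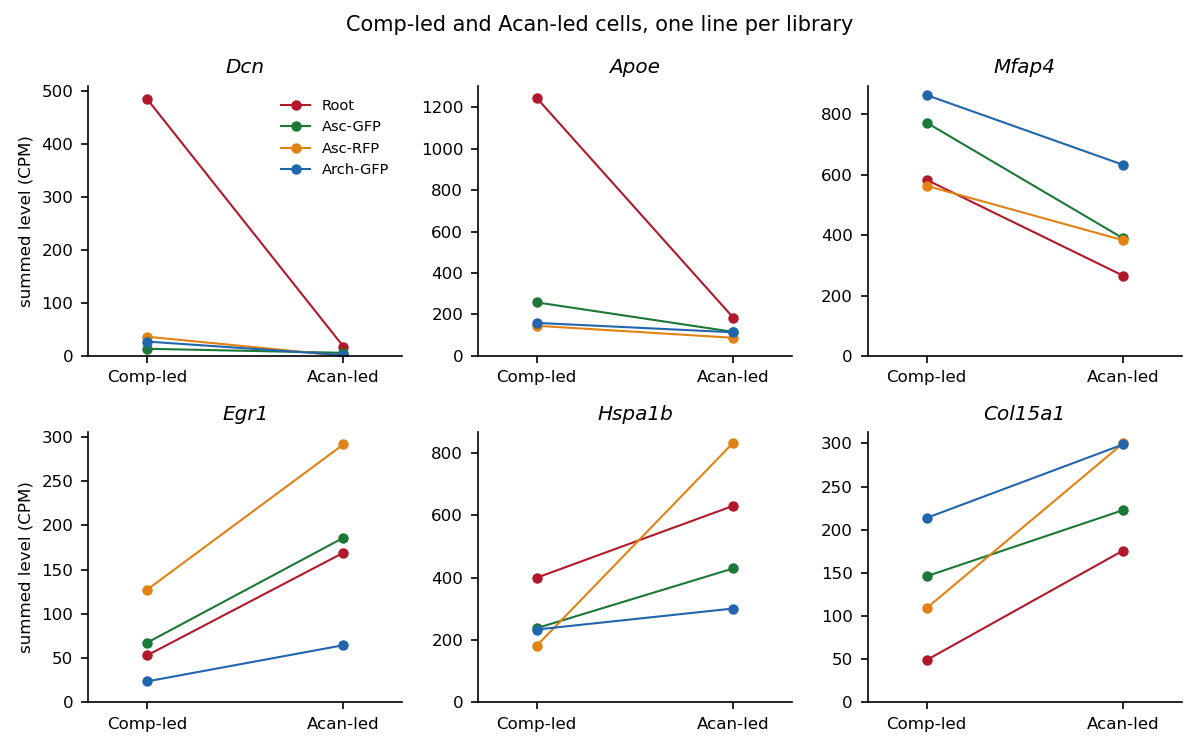
Summed level in CPM of 6 genes in Comp-led and Acan-led cells, one line per library. Dcn and Apoe differ most in Root, where Dcn is at 486 CPM in Comp-led cells, and Egr1, Hspa1b and Col15a1 are lower in Comp-led cells of all 4 libraries.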

How the data were processed

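Per the labels, the 4 libraries were made with 10x Genomics 3′ v3.1 chemistry, and the deposited values are UMI counts, whole numbers written by Cell Ranger 7.0.0 as the file headers state. Per the submitters' processing notes, mm10 was the genome build and Seurat 4.3 was used. Free RNA was not removed and no doublet caller was run. Cells were thinned to 5000 UMIs (seed 1) and summed per library and set, and sums were tested in edgeR 4.0.16 (quasi-likelihood, TMM, library as a block, Benjamini-Hochberg over all genes with at least 3 CPM over eligible cells) in R 4.3.3. The 2 sums of a pair come from the same library, which is what pairs them. Acan and Comp were left out of tests where the rule used them, whereas Myh11, used by a filter, was not left out. The scripts were tested on simulated data. Depth is 300000 to 1890000 thinned UMIs per Acan/Comp sum, and the Comp-led and Acan-led sums are parts of these. Shares have exact (Clopper-Pearson) intervals. Named genes were the first 16 higher and 10 lower by p with the same sign in 4 libraries, up to 4 of each list by p and others chosen after their values were seen, leaving out mitochondrial, ribosomal, sex-linked and reporter genes. For Comp-led against Acan-led cells, the first 6 each way were taken. The cells and lists were chosen with earlier results of these data known. Some genes that the naming rule picked are not reported here. DESeq2 1.42.0 and other alternatives are given in the closing section.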

Additional observations from a re-analysis of the deposited data

Results flagged for a closer look

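For 5 genes the library's own log2 ratio of Acan/Comp over negative cells lay above 0 beyond counting error in 1 or more libraries and below 0 in others, and the difference between libraries was not tested. Tnnt2, cardiac troponin T, was at 0.30 in Asc-GFP against -1.04 in Root and -1.64 in Asc-RFP, and over 4 libraries it was lower (-0.64 ± 0.15, edgeR adjusted p = 0.00729), a call that was lost without Root (adjusted p = 0.6). Dcn was at 1.21 in Root against -1.38 in Asc-GFP, -1.21 in Arch-GFP and -3.08 in Asc-RFP. Fbln5, fibulin-5 of elastic fibres, was at 0.17 in Root against -0.23 in Asc-GFP and -0.23 in Arch-GFP. Ccnd2, a D-type cyclin, was at 0.28 in Asc-GFP and 0.13 in Arch-GFP against -0.35 in Asc-RFP. Ccn2, a matricellular protein, was at 0.27 in Root, 0.13 in Asc-GFP and 0.48 in Asc-RFP against -0.061 in Arch-GFP.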

How the results depend on the processing

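The shares depend on the minimum. In Root, then Asc-GFP, Asc-RFP and Arch-GFP they were 8.23, 9.45, 2.23 and 6.83% at 3 UMIs, and 1.16, 1.45, 0.312 and 0.788% at 8 UMIs. They were 8.39, 9.18, 2.29 and 5.71% in male cells, while those of female cells in the last 3 libraries were 4.79, 1.17 and 0.920%. The 578 genes called between Acan/Comp and negative cells became 131 with a minimum of 8 UMIs, 1029 with no thinning, 162 in female cells, 322 in male cells and 260 with DESeq2 (259 of them among the 578), and 204 to 531 without 1 library. With other types' markers left out, 3 were called. In the other settings tried the count lay within 1.5 times of 578. The block of library and sex and the macrophage and endothelial setting were chosen after seeing the data.

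With no replicate block, so that a library's 2 sums were not paired, 21 genes were called between Acan/Comp and negative cells, 41 in the Acan split, 7 between Comp-led and Acan-led cells, and 0 in the Comp split, where edgeR gave 417 an unadjusted p under 0.05. Comp in Acan-high cells was then at 1.68 (edgeR adjusted p = 0.29) and Acan in Comp-high cells at 1.46 (edgeR adjusted p = 1), neither called. Without 1 library the Acan split gave 413 to 1018 calls, the Comp split 8 to 23 and Comp-led against Acan-led cells 22 to 91. A minimum of 2 UMIs gave 37 in the Comp split. Comp in Acan-high cells (1.03 to 2.05) and Acan in Comp-high cells (1.16 to 1.43) kept their calls without any 1 library.

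These log2 differences of Acan/Comp minus negative cells turned sign, and only Dcn without Root was called. With other types' markers left out, which kept 6, 19, 4 and 2 Acan/Comp cells, Mgp was at -0.22, Susd5 -0.22, Mustn1 -0.030, Ank -0.054, Cspg4 -0.37, Egr1 -1.11, Id4 -0.18, Ier2 -0.67, Pln -0.093, Vcam1 -4.80, Ccn2 -0.46, Ccnd2 -0.26, Dcn -1.24 and Mia 0.035. Dcn was at -0.42 with a minimum of 3 UMIs, -0.087 at 8000 UMIs, -0.024 with no thinning, -0.020 in male cells, -0.043 without the highest-UMI cells, -1.04 in DESeq2, -0.0065 with no block and -1.59 to 0.37 without 1 library, whereas with a minimum of 8 UMIs it was called higher at 1.28 (edgeR adjusted p = 1e-06). Mia was at 0.094 with a minimum of 8 UMIs, 0.031 in female cells and 0.0044 with no block. Sox9 was at 0.55 with that minimum, 0.10 with no thinning and -0.34 to 0.092 without 1 library. With that minimum Col15a1 was at -0.034, Ccn2 at -0.0075 and Ccnd2 at -0.16. Ccnd2 was at -0.00036 against matched negative cells and -0.020 to 0.14 without 1 library, and Fbln5 at 0.045 in female cells. Of the genes named for Acan/Comp against negative cells, these lost the call in the same direction with a minimum of 8 UMIs: 4631405J19Rik, Npnt, Fbxl22, Ank, Apoe, Bmpr1b, Cspg4, Ext1, Fbln1, Fgf1, Fzd7, Id4, Ier2, Ihh, Myh11, Nr4a1, Ryr2, Smad6, Tbx20, Tnc, Tnnt2 and Vcam1. Those lost in DESeq2 were Des, Rgs5, Sfrp2, Fn1, Tnnt2 and Vcam1, and for Fbln1, Ihh, Thbs1 and Tnc it gave no adjusted p. The cause was not tested. Depth limits Asc-RFP most, where 60 Acan/Comp cells gave 300000 UMIs.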
